A study of Rattus norvegicus with 9 samples.

Results

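Genes of the smooth muscle and actin cytoskeleton programme of serum response factor (SRF) were measured by RNA sequencing in H9c2(2-1) cells. The set holds 35 genes chosen by symbol, out of 36856 genes in the tables: actins, actin-binding and calponin-family proteins, myosin light chains and their kinase, focal adhesion and LIM-domain proteins, and the transcription regulators SRF, MRTF-A, MRTF-B and myocardin. All 35 were found in every library and all 35 passed the filter on low counts, among 14706 genes that did. H9c2(2-1) is a line of myoblasts derived from embryonic heart of the BD1X rat, with a genotype given as WT. The 9 libraries form 3 groups of 3. Control cells were untreated and kept in the normal growth medium. The ESW group received energized structured water and the CW group control water, each diluted to 0.01 for 72 h with fresh dilution in the medium every 24 h. All groups were grown in DMEM with serum and antibiotics. It is 1 cell line, and nothing in the labels shows whether replicates were separate cultures, so that p-values cover only the spread among the libraries, which may be technical.

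SRF is a DNA-binding protein that occupies the CArG box, a short A/T-rich motif flanked by C and G pairs, in the promoters of contractile and cytoskeletal genes. Its cofactors MRTF-A and MRTF-B are held in the cytoplasm by monomeric actin and enter the nucleus when actin polymerises. Myocardin is the cofactor most closely tied to differentiated smooth and cardiac muscle. Actin, the main product of the programme, thereby stands in a feedback loop with its own regulator. Smooth muscle actin, transgelin and calponin are also made by myofibroblasts and immature muscle cells, so that these transcripts mark a contractile state rather than 1 cell type.

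Promoter windows of RefSeq (assembly GRCr8), each from 250 bases before to 50 bases after an annotated start, were on hand for 28 of the 35 genes. Actb, Tagln, Lmod1, Myl9, Myocd, Actn4 and Lpp had no window and were not searched. Of these, Actb and Actn4 were called in both comparisons of ESW. The CArG box was searched by its consensus of 10 bases, which reads the same on both strands. An exact match was present for 5 of the 28 genes, Actg1, Cnn2, Fhl1, Fhl2 and Srf, in 6 of the 36 windows of the 28 genes (16.7%) against 1.64% of all 33469 windows. With at most 1 mismatch allowed, 11 of the 28 genes had one, in 16 of 36 windows (44.4%) against 21.3% of all. Windows of 1 gene can overlap, as those of Palld do, so that the same site can count more than once. A share per gene over all genes is not given. The 35 genes were put together as an SRF set, so their higher share of CArG matches is no independent evidence of regulation by SRF. Stretches of 80 to 130 bases from the windows of 5 genes are printed below 5′ to 3′ in the direction of transcription. Capitals mark exact matches, except in Acta2, where they mark matches with 1 mismatch. Actg1 and Fhl1 are shown because they were called in both comparisons of ESW, and Acta2 as the abundant smooth muscle actin called in both. Smtn and Zyx, also called in both, have matches with 1 mismatch too, at 110 bases before the start in Smtn and at 236 and 99 in Zyx, and are not printed. Cnn2 was called in the comparison with CW, and Srf, with 2 exact matches, in neither.
Acta2 (chr1:241172543-241172672, minus strand): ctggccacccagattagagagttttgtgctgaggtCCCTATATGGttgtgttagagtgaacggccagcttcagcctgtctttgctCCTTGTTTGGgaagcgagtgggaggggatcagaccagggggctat
Actg1 (chr10:106120997-106121076, minus strand): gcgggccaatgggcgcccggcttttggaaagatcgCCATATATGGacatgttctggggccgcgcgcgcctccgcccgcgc
Fhl1 (chrX:139638359-139638438, plus strand): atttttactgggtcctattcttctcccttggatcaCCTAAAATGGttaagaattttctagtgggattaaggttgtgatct
Cnn2 (chr7:10370339-10370418, minus strand): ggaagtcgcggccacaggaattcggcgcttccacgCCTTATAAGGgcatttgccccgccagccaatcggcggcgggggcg
Srf (chr9:21923960-21924059, plus strand): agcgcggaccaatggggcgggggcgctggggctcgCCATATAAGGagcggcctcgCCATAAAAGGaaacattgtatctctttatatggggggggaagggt
The matches begin 134 and 84 bases before the start in Acta2, 90 in Actg1, 102 in Fhl1, 71 in Cnn2, and 81 and 61 in Srf. The Srf stretch holds a further match with 1 mismatch, 38 bases before the start, which is left in lower case. A match is a description of these letters, and binding was not measured. Exact matches stood both in genes called in ESW (Actg1, Fhl1, Cnn2) and in genes not called (Srf, Fhl2).

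Libraries held 26748673 to 48574618 estimated reads, of which the 35 genes took 5.55% to 5.99%. Replicates of a group differed by more than counting noise in every pair. On the first principal component of all genes (24.1% of the variance) the value of Control replicate 1 was -10.9, inside the ESW range (-28.7 to -8.79), while Control replicates 2 and 3 lay at 7.08 and 12.3 beside CW (15.4 to 16.5). Over the 35 genes, the first component (56.9% of their variance) placed all 3 ESW libraries between -0.570 and -0.326 and the other 6 between 0.0824 and 0.453. Among cell type markers, 5 of 6 for endothelium and all 5 for blood stayed under 1 CPM in every library. Of 5 for epithelium 4 did, whereas Krt8 had 49.2 to 64.6 CPM. Of 7 cardiomyocyte markers 4 were under 1 CPM throughout, with Nppa, Myh6 and Ryr2 at or near 0, whereas Tnnt2 reached 62.3 CPM and Pln 11.2 CPM. Of 8 skeletal myoblast markers Cdh15 (29.8 to 36.7 CPM) and Myod1 (7.59 to 11.2 CPM) were present. Des (3.88 to 6.65 CPM) and Myog (2.0 to 3.58 CPM) were lower, and Myf5, Myf6, Chrna1 and Pax7 were under 1 CPM. Of 8 differentiated smooth muscle markers Kcnmb1 alone was under 1 CPM in every library. The summed CPM of the 8, which include 5 of the 35 genes, was 4410 to 4530 in Control, 4680 to 4790 in ESW and 4160 to 4410 in CW. Most of it came from the member Actg2, at 3520 to 3600, 3730 to 3810 and 3340 to 3500. Outside the 35 genes, Itga8 had 63.3 to 70.7 CPM in Control, 61.1 to 72.1 in ESW and 53.4 to 60.5 in CW. Myh11 had 36.9 to 39.7, 40.1 to 45.8 and 35.8 to 39.2. Of a further list of 16 smooth muscle markers 14 passed the filter on low counts, among them Tagln3 at no more than 0.457 CPM. Not passing were Rgs5, with 0 reads, and Gucy1a1, with 17 reads over the 9 libraries. The summed CPM of 6 fibroblast markers, nearly all from Col1a1, was 32700 to 34800 in Control, 40100 to 41800 in ESW and 33900 to 35800 in CW, and its part in the results below was not tested. In such bulk samples more cells of a type and more RNA per cell cannot be told apart.

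Levels of the 35 genes spanned more than 3 orders of magnitude in TPM, the abundance per transcript length. Actb, a cytoplasmic actin, had a mean of 11070 TPM over the 9 libraries and Acta2, smooth muscle actin, 10380 TPM, which ranked them 3 and 4 among all genes. The essential myosin light chain gene Myl6 (6457 TPM), transgelin (Tagln, 6204 TPM) and the enteric smooth muscle actin gene Actg2 (5008 TPM) were also within the top 20. In all, 12 of the 35 genes were among the 100 most abundant and 24 among the 1000 most abundant. The transcription regulators were far lower per length, at 55.2 TPM for Mrtfa, 49.1 for Srf, 14.8 for Mrtfb and 7.13 for Myocd. Synpo2, which encodes an actin-bundling protein of smooth muscle, was likewise low at 8.95 TPM. Myocd, although low, had 12408 reads over the 9 libraries.

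**Figure D1:**
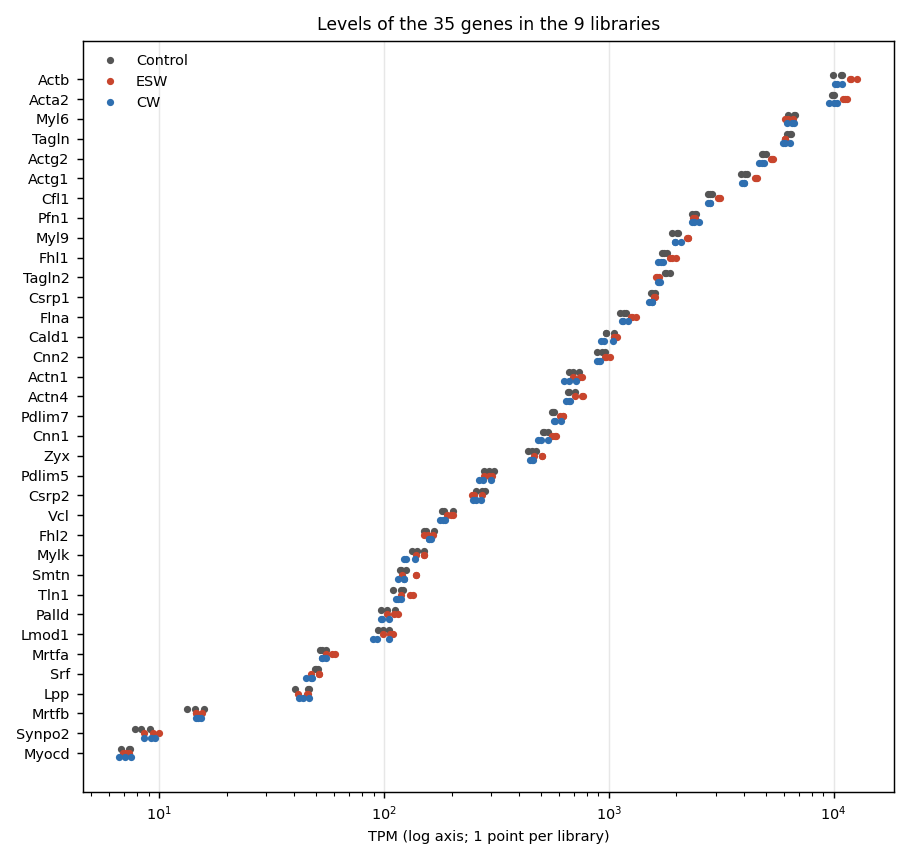
TPM of each of the 35 genes (rows, by mean level) in the 9 libraries on a log axis, 1 point per library, coloured by group. Levels run from about the 7.13 TPM of Myocd to the 11070 TPM of Actb, and the ESW points lie to the right of both other groups for the 4 actins.

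The 35 genes together held 6.12% to 6.33% of all TPM in Control, 6.66% to 6.73% in ESW and 6.04% to 6.31% in CW. The ESW libraries lay above the others without overlap. The 4 actin genes contributed 2.85% to 2.999% in Control, 3.31% to 3.36% in ESW and 2.86% to 3.02% in CW. Both kinds of actin contributed. The smooth muscle pair Acta2 and Actg2 made up 48.6% to 50.5% of the 4-actin TPM in ESW, 49.8% to 51.5% in Control and 49.9% to 51.5% in CW, ranges that overlap.

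**Figure D2:**
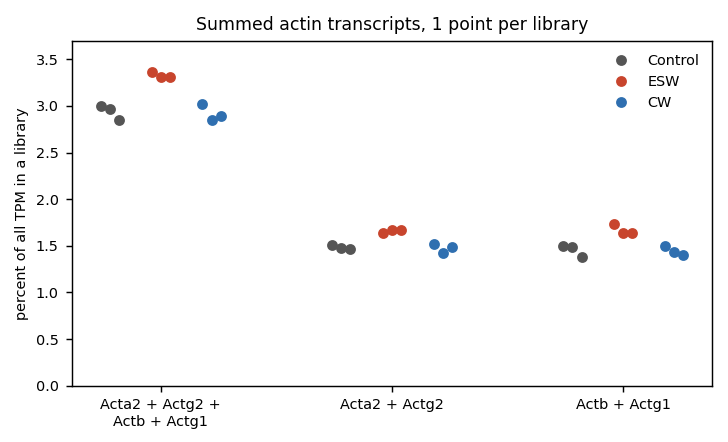
Share of all TPM (percent, axis from 0) held by the 4 actin genes, the smooth muscle pair and the cytoplasmic pair, 1 point per library. The 3 ESW points lie above all Control and CW points in each sum, at 3.31% to 3.36% for the 4 actins.

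The comparison of ESW with Control asked which of these transcripts differ after treatment. Of the 35 genes 11 were higher in ESW, 1 was lower and 23 were not called (edgeR quasi-likelihood test, adjusted p below 0.05 over all genes). Among all 14706 tested genes 8.04% were called, 4.76% higher and 3.28% lower. The set is abundant, and abundant genes were called more often. Of the 1837 genes that averaged 100 CPM or more, a limit chosen after seeing the data, 22.4% were called, against 12 of the 31 members in that range. All changes were small: log2 fold changes ran from -0.15 to 0.23 with a median of 0.07, against -0.01 over all genes and 0.03 over those of at least 100 CPM, and 28 of the 35 were above 0, against 47.4% of all tested genes. ESW and Control did not overlap for 18 of the 35 genes and for 25.6% of all genes. The 11 higher genes were the actins Acta2, Actb and Actg1, Smtn, the regulator Mrtfa, the adhesion and cross-linking genes Flna, Tln1, Zyx and Actn4, and the LIM-domain genes Pdlim7 and Fhl1.

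The comparison with CW, which set ESW against the other water, used the same 3 ESW libraries. Of the 35 genes 14 were higher in ESW, 0 were lower and 21 were not called. An unadjusted p under 0.05 was found for 23 of the 35 and for 3514 of all 14706 tested genes (edgeR). Among all tested genes 8.14% were called and 4.15% were higher, and of those with at least 100 CPM 21.3% were called, against 14 of 31 members. The log2 fold changes ran from -0.06 to 0.21 with a median of 0.11, against 0.00 over all genes and 0.06 over those of at least 100 CPM. ESW and CW did not overlap for 22 of the 35 genes and for 28.3% of all genes. The 7 genes called in both comparisons were Acta2, Actb, Actg1, Actn4, Fhl1, Smtn and Zyx, and the comparisons share their ESW libraries. With offsets for effective length, Actn4, Fhl1, Smtn and Zyx lost the call against Control, and Smtn and Zyx also that against CW. Called against CW but not against Control were Actg2, Cfl1, Cnn1, Cnn2, Myl9, Mylk and Palld.

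CW against Control, which sets water of the same dilution against no addition, called 0 of the 35 genes by edgeR and 0.177% of all genes. An unadjusted p under 0.05 was found for 3 of the 35 and for 1452 of all 14706 tested genes. DESeq2, and edgeR without a filter on low counts, each called 1, Tagln2, which was lower (adjusted p = 0.00273 and 0.0339). The log2 fold changes ran from -0.13 to 0.12 with a median of -0.035, against 0.00 over all genes, and 11 of the 35 were above 0, against 49.8% of all tested genes. There was no overlap between CW and Control for 5 of the 35 genes and for 14.7% of all genes.

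**Figure D3:**
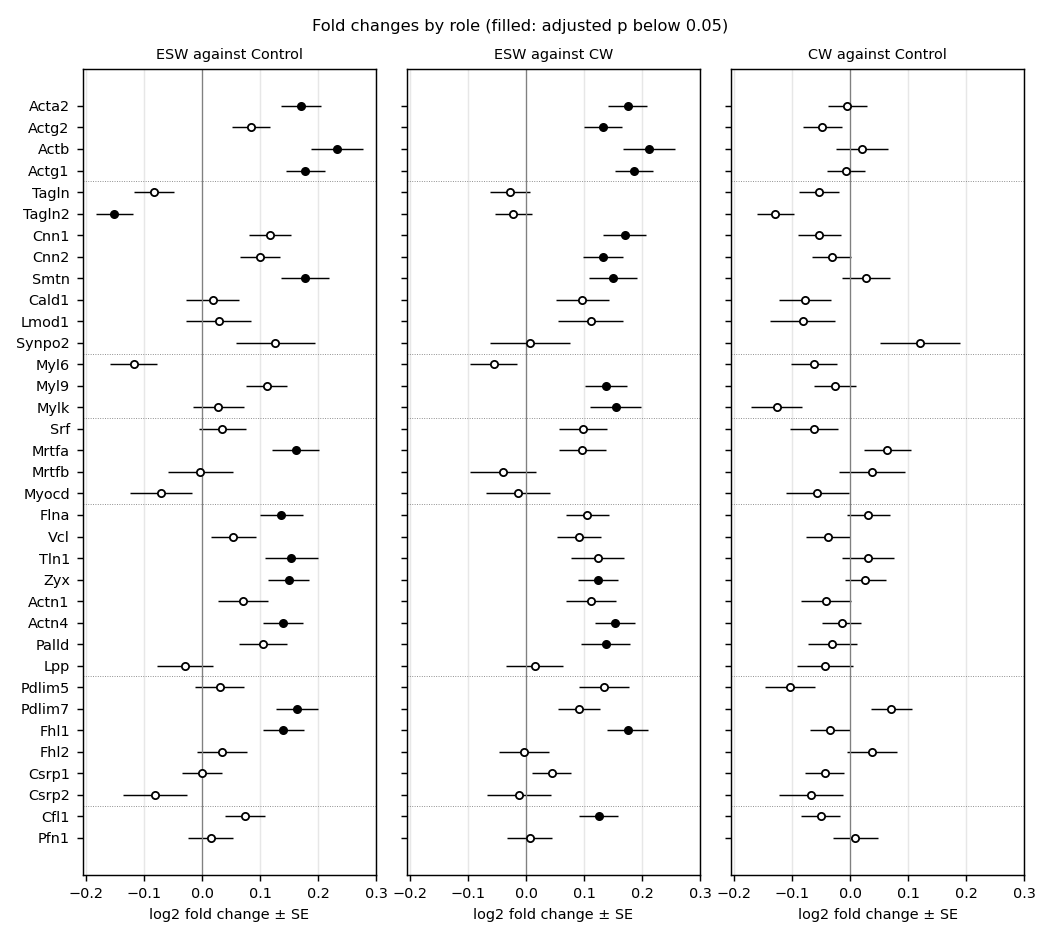
Log2 fold change with its SE (bars) of each of the 35 genes in the 3 comparisons, grouped by role with dotted lines; filled points have an adjusted p below 0.05. The actins lie at 0.08 to 0.23 in ESW against Control, Tagln2 is the called gene on the lower side, and no point is filled in CW against Control.

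The actins form the thin filaments. Acta2 gave 7864, 7951 and 7975 CPM in the Control libraries, 9054, 8830 and 8873 in those of ESW and 8063, 7521 and 8123 in those of CW. Every ESW library was above every other library, and CW replicate 2 was the lowest. The log2 fold change of Acta2 was 0.17 (SE 0.03, adjusted p = 0.00529) against Control and 0.17 (SE 0.03, adjusted p = 0.00519) against CW, a rise of about 1.13-fold in each by edgeR. Actb had 6506, 6687 and 6242 CPM in Control, 8297, 7173 and 7359 in ESW, with 6741, 6499 and 6463 in CW. Here ESW replicate 1 stood high above the other ESW libraries, which still exceeded all of Control and CW. The log2 fold change of Actb was 0.23 against Control (adjusted p = 0.00388) and 0.21 against CW (adjusted p = 0.00811), with an SE of 0.045 in each, and 0.17 and 0.15 without ESW replicate 1, still called. Actg1, the other cytoplasmic actin, rose from 3940 ± 75.4 CPM in Control (SD, n = 3) and 3920 ± 14.2 in CW to 4459 ± 133 in ESW, by 0.18 and 0.19 on the log2 scale (edgeR adjusted p = 0.00313 and 0.00315).

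Actg2 had 3604, 3517 and 3572 CPM in Control, 3794, 3728 and 3814 in ESW, with 3499, 3343 and 3501 in CW. Its libraries did not overlap in either comparison, and it was called against CW (log2 fold change 0.13, adjusted p = 0.0185) but not against Control (0.08, adjusted p = 0.125, edgeR). The coding sequences of actins are very alike, and how Salmon divides shared reads can affect each of them. The striated actins, which could share reads with Acta2 and Actg2, were low: Acta1 at 23.0 to 30.2 CPM and Actc1 under 1 CPM in every library.

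Calponin, smoothelin and transgelin bind actin filaments in contractile cells, and they differed among themselves. Cnn1, calponin 1, had 484, 478 and 476 CPM in Control, 517, 519 and 522 in ESW, with 480, 441 and 465 in CW. The ESW libraries were almost alike and above all others. Cnn1 was called against CW (0.17, SE 0.04, adjusted p = 0.00864) and missed the threshold against Control (0.12, adjusted p = 0.0549, edgeR). Cnn2, a calponin of non-muscle cells, was likewise called against CW (0.13, adjusted p = 0.0217) and not against Control (0.10, adjusted p = 0.0746). Smtn, smoothelin, had 268, 258 and 264 CPM in Control, 284, 298 and 310 in ESW, with 268, 258 and 278 in CW. All 3 ESW libraries were higher, by 0.18 against Control (adjusted p = 0.0113) and 0.15 against CW (adjusted p = 0.0292), though the deposited TPM of Smtn in ESW replicate 1, 120.7, lay within the range of Control, 117.6 to 125.5.

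Tagln2, a transgelin of non-muscle cells, was the member that fell. It had 1219, 1205 and 1198 CPM in Control, 1099, 1086 and 1079 in ESW, with 1108, 1094 and 1111 in CW. Both waters lay below Control without overlap. Against Control the log2 fold change of ESW was -0.15 (SE 0.03, adjusted p = 0.00749) and that of CW was -0.13 (SE 0.03, adjusted p = 0.132), while ESW and CW differed by -0.02 (adjusted p = 0.736, edgeR). Tagln, transgelin itself, had 3545, 3536 and 3722 CPM in Control, 3448, 3339 and 3414 in ESW, with 3554, 3353 and 3496 in CW. It was not called: its log2 fold change was -0.08 against Control (SE 0.04, adjusted p = 0.161) and -0.03 against CW (adjusted p = 0.681). The values of Tagln were thus below 0 where those of Acta2 and Cnn1 were above 0.

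The other 3 actin-filament genes were not called in any comparison: Cald1, caldesmon, at 2596 ± 138 CPM in Control and 2630 ± 66.1 in ESW; Lmod1, leiomodin, at 254 ± 13.0 and 259 ± 15.5; and Synpo2 at 24.5 ± 1.80 and 26.7 ± 1.81 (SD, n = 3 each).

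**Figure D4:**
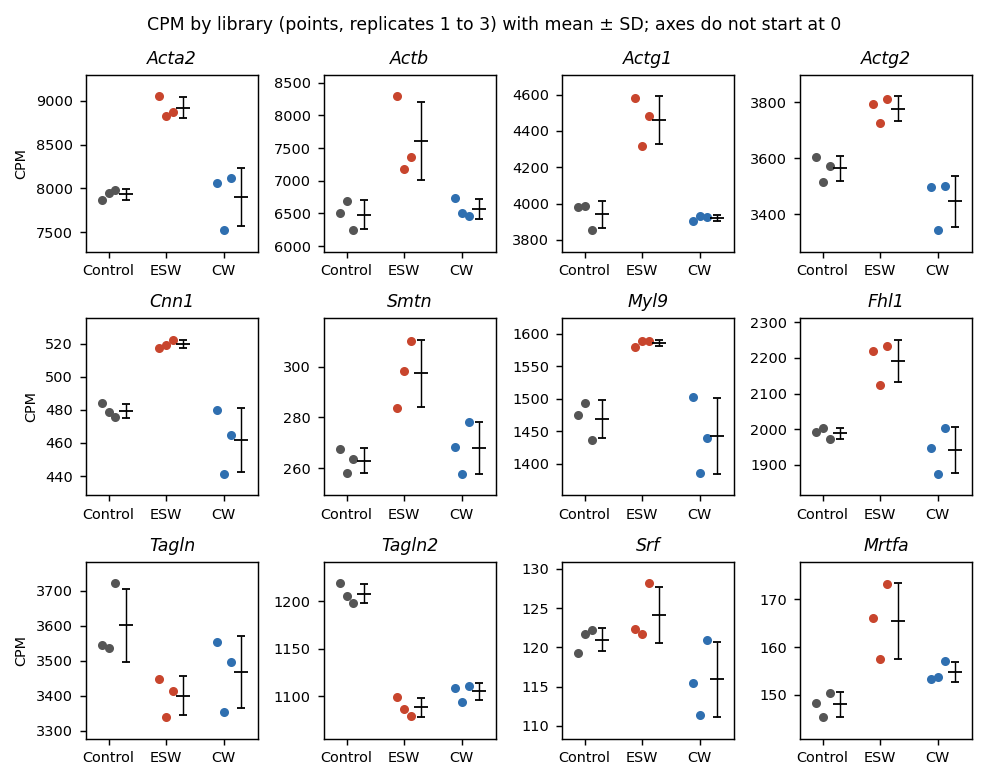
CPM of 12 of the genes in each library (points, replicates 1 to 3 from left to right) with the group mean and SD beside them; the axes do not start at 0. ESW lies above both other groups for the 4 actins, Cnn1, Smtn, Myl9, Fhl1 and Mrtfa, whereas both waters lie below Control for Tagln2.

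Myosin of smooth muscle and non-muscle cells is switched on when its regulatory light chain is phosphorylated. Myl9, a gene of that light chain, had 1475, 1494 and 1437 CPM in Control, 1580, 1589 and 1589 in ESW, with 1503, 1386 and 1439 in CW. ESW exceeded every other library, and Myl9 was called against CW (0.14, SE 0.04, adjusted p = 0.0242) but not against Control (0.11, adjusted p = 0.0639, edgeR). Mylk, the kinase that phosphorylates it, lay at 406 ± 17.9 CPM in Control, 414 ± 14.8 in ESW, with 372 ± 18.6 in CW (SD, n = 3 each). It was called against CW (0.15, adjusted p = 0.0353), where CW had the lowest mean and its libraries overlapped those of Control, and its value against Control was 0.03 (adjusted p = 0.761). CW against Control was not called either (-0.13, adjusted p = 0.307). Myl6, the essential light chain, had a value of -0.12 against Control (SE 0.04, adjusted p = 0.0789) and -0.06 against CW (adjusted p = 0.432).

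Among the regulators, Mrtfa alone was called. It had 148, 145 and 150 CPM in Control, 166, 157 and 173 in ESW, with 153, 154 and 157 in CW. In CPM the groups did not overlap, with CW between the others. In the deposited TPM, CW, at 53.03 to 55.56, overlapped both Control (52.12 to 55.3) and ESW (55.48 to 60.7). Mrtfa was higher by 0.16 against Control (SE 0.04, adjusted p = 0.0178), and it was not called against CW (0.10, adjusted p = 0.142, edgeR). The call of Mrtfa against Control was lost with offsets for effective length. Srf itself lay at 121 ± 1.52 CPM in Control, 124 ± 3.57 in ESW, with 116 ± 4.82 in CW, with log2 fold changes of 0.04 (adjusted p = 0.656) and 0.10 (adjusted p = 0.145). Mrtfb and Myocd had values of 0.00 and -0.07 against Control and -0.04 and -0.01 against CW, with SE of 0.05 to 0.06 and adjusted p from 0.466 to 0.987.

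Proteins that anchor actin to focal adhesions, or cross-link it, gave 4 called genes of 8 against Control and 3 of 8 against CW, all higher. Of all tested genes 8.04% and 8.14% were called, and of those with at least 100 CPM 22.4% and 21.3%. Zyx, zyxin, which gathers at strained filaments, had 594, 600 and 578 CPM in Control, 651, 643 and 671 in ESW, with 599, 591 and 614 in CW. It was higher by 0.15 and 0.12 (adjusted p = 0.0129 and 0.0359). The call of Zyx against CW held in 3 of 9 fits that left out 1 library, and was lost with length offsets (adjusted p = 0.093) and with a filter of 1 CPM in 3 libraries (adjusted p = 0.0513). Actn4, a non-muscle alpha-actinin that bundles filaments, rose from 1875 ± 32.5 in Control and 1856 ± 43.2 in CW to 2065 ± 49.2 CPM in ESW, by 0.14 and 0.15 (adjusted p = 0.0173 and 0.0106). For both genes every ESW library exceeded every other one. In the deposited TPM, however, ESW replicate 1 of Zyx, 467.1, lay below the highest Control library, 472.7.

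Flna, filamin A, a cross-linker of the cortical network, had 6898 ± 250 CPM in Control, 7580 ± 321 in ESW, with 7048 ± 133 in CW (SD, n = 3 each). It was called against Control (0.14, adjusted p = 0.0295) and missed the threshold against CW (0.10, adjusted p = 0.0897, edgeR). Tln1, talin, which couples integrins to actin, was called against Control too (0.15, adjusted p = 0.039), but its libraries overlapped: Control replicate 3 had 706.1 CPM and ESW replicate 2 had 705.1. The call of Tln1 held in 3 of 9 fits that left out 1 library, and was lost with length offsets (adjusted p = 0.135) and in a fit of only the 6 libraries compared (adjusted p = 0.0655). Palld, palladin, was called against CW (0.14, adjusted p = 0.0492). That call held in 3 of 9 fits that left out 1 library, and was lost with DESeq2's size factors (adjusted p = 0.0559), the 1 CPM filter (adjusted p = 0.064) and length offsets (adjusted p = 0.103, all by edgeR). Vcl, vinculin, Actn1, the other alpha-actinin, and Lpp had values of 0.05, 0.07 and -0.03 against Control and 0.09, 0.11 and 0.02 against CW, none of them called.

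Of the 6 LIM-domain genes, Fhl1 and Pdlim7 were called. Fhl1 encodes a scaffold protein of muscle, and had 1993, 2002 and 1972 CPM in Control, 2219, 2124 and 2234 in ESW, with 1948, 1875 and 2002 in CW. The ESW libraries were all higher, by 0.14 against Control (adjusted p = 0.0188) and 0.17 against CW (adjusted p = 0.00591). Pdlim7 had 529 ± 10.0 CPM in Control, 592 ± 17.6 in ESW, with 556 ± 12.1 in CW, and was called against Control (0.16, adjusted p = 0.00925) but not against CW (0.09, adjusted p = 0.126). Its CW libraries stood between the other groups in CPM, as for Mrtfa. In the deposited TPM, CW of Pdlim7, at 568.7 to 616.2, overlapped both Control (561.3 to 573.3) and ESW (607.6 to 627.8). The calls of Fhl1 and Pdlim7 against Control were lost with offsets for effective length. Pdlim5, a related scaffold protein, was not called, with values of 0.03 against Control and 0.13 against CW (adjusted p = 0.73 and 0.0587). Fhl2, Csrp1 and Csrp2 were not called, with values from -0.08 to 0.04 in both comparisons.

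Cfl1 and Pfn1, cofilin and profilin, govern the turnover of actin between filament and monomer. Cfl1 had 1714, 1712 and 1700 CPM in Control, 1803, 1789 and 1803 in ESW, with 1649, 1598 and 1700 in CW. ESW was above all other libraries, and Cfl1 was called against CW (0.12, SE 0.03, adjusted p = 0.027) but not against Control (0.07, adjusted p = 0.196). Pfn1 had values of 0.02 and 0.01 with SE of 0.04 (adjusted p = 0.869 and 0.945, edgeR).

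Most other genes of the pathway were not called. Of 12 tested SRF cofactors and repressors 2 were called in each comparison, where 8.04% and 8.14% of all genes were: Foxo4, which restrains myocardin, was higher (0.20 and 0.22) and Scai, a suppressor of MRTF, was lower (-0.33 and -0.39) in both comparisons. Scai is a low transcript, at 13.6 to 15.6 CPM in Control and 9.88 to 13.1 in ESW. Of 18 genes of actin turnover and the Arp2/3 complex, 3 were called against Control and 4 against CW. Most of the 18 had at least 100 CPM, and of all genes in that range 22.4% and 21.3% were called. Gsn, gelsolin, which severs filaments, was higher in both comparisons (0.13 and 0.12). Tmsb4x, the monomer-binding thymosin beta 4, and Arpc3 were lower (-0.29 and -0.15 against Control, -0.23 and -0.13 against CW). Coro1c was higher against CW (0.16). Tmsb4x had 2984 to 3593 CPM in Control, 2559 to 2885 in ESW, with 2872 to 3379 in CW.

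Beside the lists that follow, 8.04% of all tested genes were called against Control and 8.14% against CW. Of those with at least 100 CPM, 22.4% and 21.3% were. Of 11 contractile and phosphatase genes 0 were called against Control by edgeR. An unadjusted p under 0.05 was found there for 3 of the 11 and for 3357 of all 14706 tested genes. Against CW 1 was called, Myh11, smooth muscle myosin, at 0.23 (edgeR adjusted p = 0.0202). It lay at 36.9 to 39.7 CPM in Control, 40.1 to 45.8 in ESW, with 35.8 to 39.2 in CW. Of 14 tested further smooth muscle markers, Pgm5, an adhesion plaque protein, was higher in both comparisons (0.17 and 0.20), and Hspb6 against Control (0.17). Of 19 further adhesion genes, 4 were higher and 1 lower against Control and 4 were higher against CW. Tgfb1i1, the paxillin relative Hic-5, led with 0.26 and 0.19 (adjusted p = 0.000465 and 0.00442), followed by Pdlim1 with 0.19 and 0.17. Flnc, filamin C, was higher against Control (0.19), and Lims1, an adaptor of integrin-linked kinase, was lower there (-0.16, with -0.15 for CW against Control, adjusted p = 0.117).

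Of the 35 genes 12 have 1 transcript in the tables and 23 have more, up to 24. At the level of single transcripts 121 of 177 were tested. In both ESW comparisons 0 were called by edgeR, where 0.0233% and 0% of all transcripts were. An unadjusted p under 0.05 was found for 27 and 35 of the 121. That share over all transcripts is not given. By limma-voom 4 were called against Control (1 each of Tagln2, Actg1, Acta2 and Pdlim7) and 1 against CW (of Acta2). For single-transcript genes the values were close to those of the gene, as for Actg1 at 0.19 against Control, where the adjusted p over 38609 transcripts was 0.0742. Most genes were led by 1 transcript, such as the 4020-base form of Cald1 with 94.2 ± 0.3% of its TPM in Control and 94.6 ± 0.2% in ESW. Flna was shared by a form of 8412 bases with 35.6 ± 0.4% in Control, 38.7 ± 1.7% in ESW and 36.8 ± 1.1% in CW, and one of 8520 bases (SD, n = 3 each). The main forms of Myocd, of 8567 and 8178 bases, varied between replicates, the 8567-base form holding 37.8% to 63.4% of the gene in Control. Shares of forms that overlap almost wholly are estimates, and they were not tested.

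How far the calls held up depended on the libraries and on the measure and method used. Acta2, Actb and Actg1 were called in both comparisons with any 1 of the 9 libraries left out, as were Tagln2 and Pdlim7 against Control and Fhl1 against CW. Of the calls against CW, those of Cfl1 and Cnn2 held in 4 of the 9 such fits, and those of Myl9, Mylk and Smtn in 5. The count against Control was 6 without Control replicate 2 and 5 without ESW replicate 3. Against CW it was 7 and 4 when ESW replicate 2 or 3 was omitted, and 4 and 9 when CW replicate 2 or 3 was. Offsets for effective length, averaged over a gene's transcripts, left 6 calls against Control, 5 of them among the 12 and the other Myl9. Against CW they left 11, 10 of them among the 14 and the other Flna. Lost against Control were Actn4, Fhl1, Mrtfa, Pdlim7, Smtn, Tln1 and Zyx, and against CW Cnn2, Palld, Smtn and Zyx. With limma on log2(TPM + 1) 0 of the 35 were called in either comparison, where 86 and 0 of all genes were. Directions of all called genes were the same under every alternative run.

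**Figure D5:**
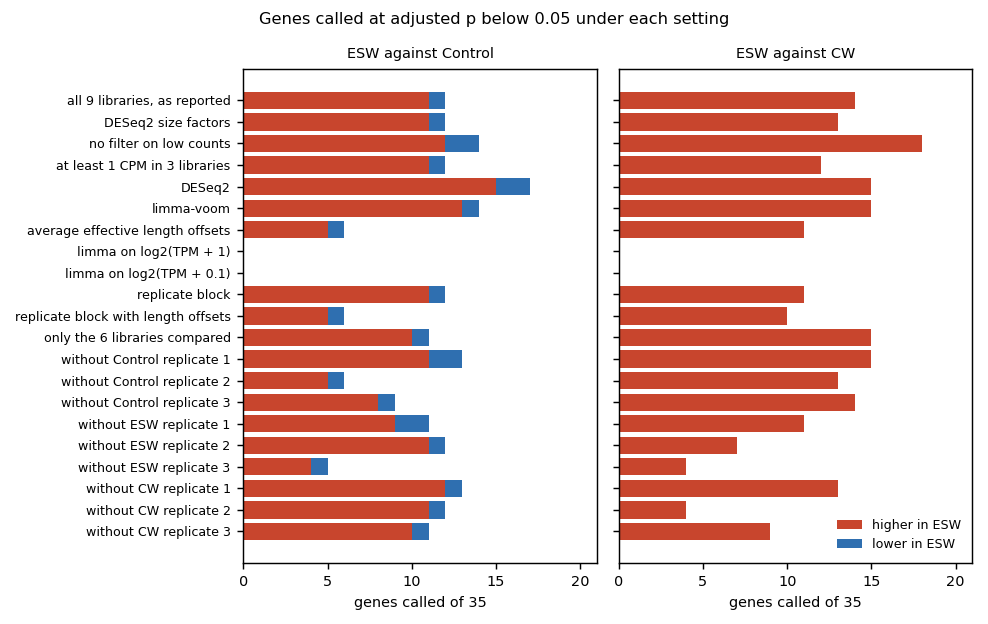
Number of the 35 genes called (adjusted p below 0.05; higher and lower in ESW stacked, axis from 0) under each setting, for ESW against Control and ESW against CW. Counts run from 0 with limma on TPM to 17 against Control with DESeq2 and 18 against CW without a filter, and they fall to 5 and 4 without ESW replicate 3.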

How the data were processed

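Total RNA (RNeasy Plus Mini kit) of 9 samples was sequenced on an Illumina NovaSeq X Plus, per the labels' protocols. Salmon 1.10.3 and DESeq2 are named in the submitters' processing notes; the build, annotation release, bias options and use of strand are not given in the sources used here. The deposited tables list 114122 transcripts with estimated counts, TPM, which in the deposited files have the same sum in every library, and effective lengths in bases, which differ between libraries. Transcript identifiers were looked up in a RefSeq table (GRCr8), and estimated counts and TPM were summed per symbol, the summed counts then rounded.

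All 9 libraries entered 1 edgeR 4.0.16 quasi-likelihood model (R 4.3.3, TMM, filterByExpr, 6 residual degrees of freedom), with Benjamini-Hochberg adjustment over 14706 genes; fold changes are log2, CPM is relative to the TMM-scaled total, and the script was tested on simulated data. The alternatives, with DESeq2 1.42.0 and limma 3.58.1 among them, are in the closing section. Members, lists and tests were chosen with earlier results of these data known. Every member is named. Of each further list at most 4 genes with the smallest p are given fold changes, and a few others are named with levels only. Promoters are printed for genes called in both ESW comparisons with a match, to which Acta2, Cnn2 and Srf were added after the matches were seen. The limma-voom test of transcripts and the 1-mismatch motif search were added after seeing the data. A further gene list is not reported here.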

Additional observations from a re-analysis of the deposited data

How the results depend on the processing

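Against Control the 12 called genes became 6 with average effective length offsets, 0 with limma on log2(TPM + 1), 0 with limma on log2(TPM + 0.1), 6 with the replicate block and these offsets together, and 5 to 13 when 1 library was left out. Against CW the 14 became 0 and 0 with limma on TPM at either pseudocount, and 4 to 15 when 1 library was left out. CW against Control gave 1 without a filter on low counts, 1 with DESeq2 and 0 with any library left out. Transcripts called were 4 and 1 with limma-voom and 0 otherwise. The cause was not tested. Acta2 had a log2 fold change of 0.18 against Control with limma on log2(TPM + 1) but an adjusted p of 0.133. All other alternatives stayed within 1.5 times the counts reported. Same-numbered libraries did not deviate together (correlations of -0.118 to 0.040). These correlations cannot show whether libraries of the same number were prepared together. With the replicate block 12 genes were called against Control and 11 against CW, where Mylk, Palld and Zyx lost their calls (edgeR adjusted p = 0.0524, 0.0653 and 0.0539). It called 0 genes for CW against Control, and 0 transcripts. Over 1183 and 1197 genes called in all, the block gave 971 and 949.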
